A study of Mus musculus with 80 samples.

Results

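The liver transcriptome was compared between mice that had been without food for 26 h and mice fed ad libitum, both killed at circadian time (CT) 36. The comparison takes the 4 libraries whose titles give fasted CT36 and the 4 whose titles give control CT36, 8 of the 80 samples in the series. The mice were C57BL/6J, an inbred laboratory strain that the genotype field gives as C57BL/6, of both sexes, 8 to 12 weeks old, housed in groups and given standard chow. All of them were kept for 10 days in a cycle of 12 h of light and 12 h of darkness and then placed in constant darkness on the day numbered 11, so that time is counted in circadian hours. Food was taken away from the fasted group at CT10 and left in place for the control group. Each group held 2 males and 2 females, each library came from 1 mouse and about the same central piece of the left liver lobe, and no gene was altered in any group. The libraries were made from polyadenylated RNA and kept the strand of the transcript. Titles were used because the more detailed labels disagreed with them on treatment for 4 and on sex for 4 of these 8 samples. By their titles, the 4 females had Xist, the RNA that silences an X chromosome, at 1039.7 to 1212 CPM (a gene's counts relative to all counts of the library, scaled by edgeR's TMM method) and the 4 males at no more than 0.641 CPM, whereas Ddx3y, a gene of the Y chromosome, was at 74.5 to 89.1 CPM in males and no more than 0.0755 CPM in females.

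When food is absent, the liver first empties its glycogen and then makes glucose from amino acids, lactate and glycerol, while fatty acids released from adipose tissue are oxidised and partly turned into ketone bodies. The nuclear receptor PPARα activates genes of fatty acid oxidation, SREBP-1c and SREBP-2 drive the genes of fatty acid and cholesterol synthesis in the fed state, and insulin, glucagon and glucocorticoids act on all of these programmes. The liver also carries a circadian clock, in which BMAL1 and CLOCK activate genes of their own repressors, so that the effect of a missing meal is read on a background that changes with the hour.

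Total counts lay between 34574971 and 59927771 per library and did not differ between the groups (exact permutation test, two-sided, p = 0.657, where 0.0286 is the smallest p that 4 against 4 can give). The hepatocyte markers, led by Alb, the gene of serum albumin, summed to 66191 to 99606 CPM in control and 85650 to 116456 CPM in fasted livers. Markers of pancreas summed to at most 0.192 CPM in fasted livers and to 0.181 to 7.07 CPM in control livers, with the highest sum in control male 2. One library stood apart, control male 1, in which acute-phase genes took 6.81% of all counts against 2.35% to 4.06% in the other 7 libraries. Per-library values are always listed in the order male 1, male 2, female 1, female 2.

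Of 21187 genes tested, 5672 differed between fasted and control livers at an adjusted p under 0.05, which is 26.8% of them. The change was an increase for 2709 genes (12.8%) and a decrease for 2963 (14%), and the median log2 change over all genes was -0.014. Among the called genes 1870 changed by a factor of 2 or more. The 4 fasted and the 4 control values did not overlap for 4561 genes (21.5%). Without control male 1, 4300 genes were called, of which 4114 were among those called with all 8 mice. The counts for each group of genes were read against these shares.

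**Figure D1:**
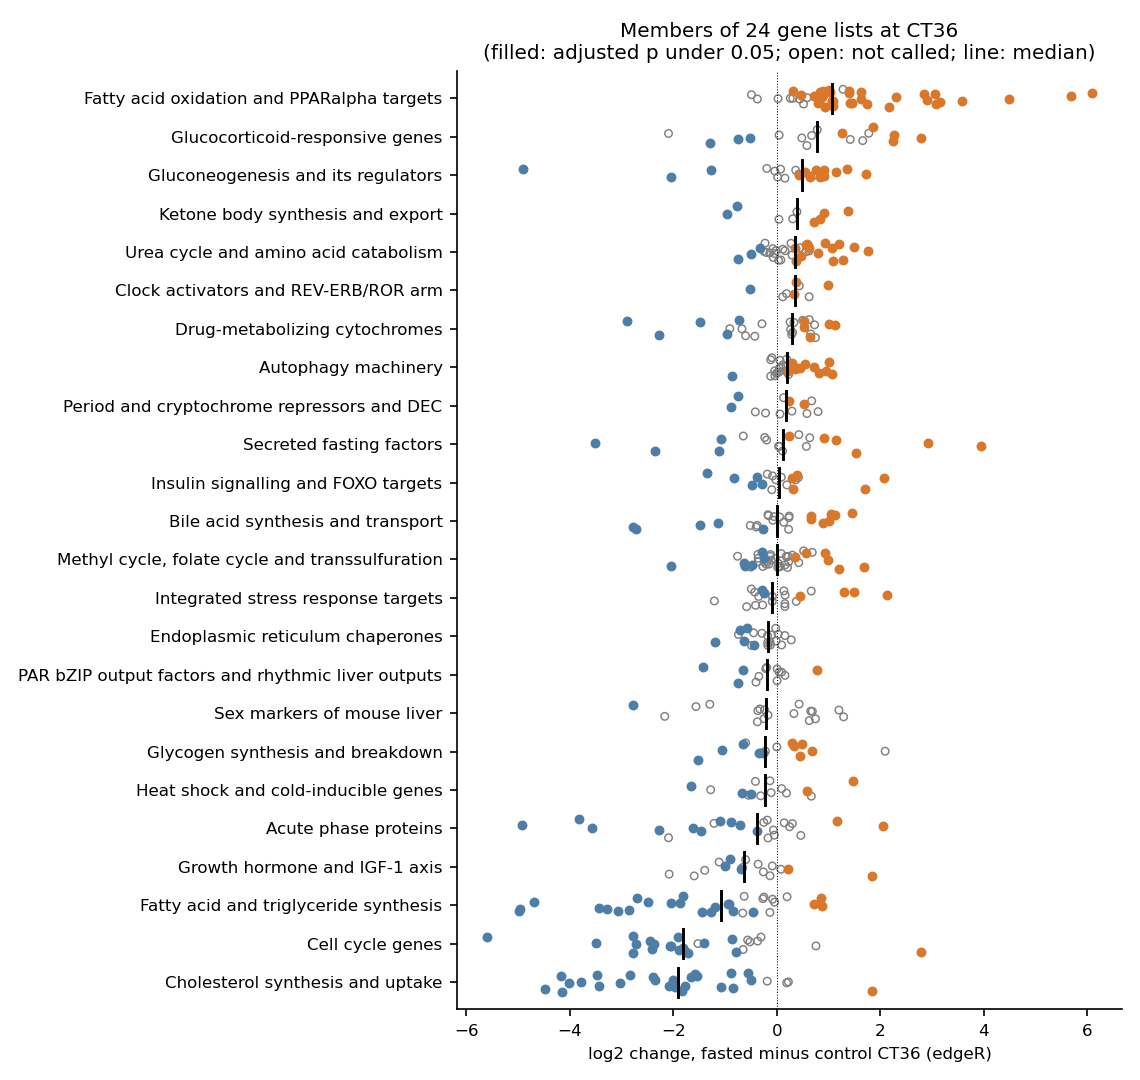
Each row is 1 of 24 gene lists and each point 1 gene, placed by its log2 change between fasted and control livers at CT36 (edgeR). Filled points passed an adjusted p under 0.05, open points did not, and the short line is the median of the list. Cholesterol synthesis, with a median of -1.90, and cell cycle genes, with -1.80, lie furthest to the left, and PPARα targets with fatty acid oxidation, with 1.07, furthest to the right.

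Genes of fatty acid oxidation and other targets of PPARα rose together. Of 44 members, 43 passed the filter on low counts, 34 rose and 0 fell, with a median log2 change of 1.07, where 12.8% of all genes rose. Cyp4a14, which encodes an enzyme that adds a hydroxyl group to the end of fatty acids (chr4:115486200-115496142 on GRCm38), had the largest rise, with 14.5, 43.3, 321 and 721 CPM in control and 9591, 8755, 9882 and 5176 in fasted mice (log2 change 6.08 ± 0.60, adjusted p 2.57e-10). Every fasted liver was far above every control liver, and the control males were below the control females. Its neighbours on chromosome 4 moved the same way, Cyp4a10 with 63.7, 88.4, 463 and 561 CPM in control and 5443, 4556, 5064 and 2667 in fasted mice (log2 change 4.48 ± 0.38, adjusted p 3.09e-12) and Cyp4a31 with 4.96, 4.57, 6.12 and 17.4 CPM in control and 125, 92.5, 73.8 and 74.0 in fasted mice (log2 change 3.58 ± 0.45, adjusted p 5.49e-08). These genes belong to a family of similar sequences, so that reads may have been split between them and each single value is uncertain.

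Cidec, which encodes a protein that lets lipid droplets fuse, showed 1.31, 3.16, 1.08 and 1.27 CPM in control and 50.2, 52.3, 131 and 128 in fasted mice (log2 change 5.67 ± 0.44, adjusted p 3.15e-13). The lowest fasted mouse, at 50.2 CPM, was far above the highest control mouse, at 3.16 CPM. Plin4, the gene of another lipid droplet coat protein, gave 8.68, 20.01, 9.21 and 12.1 CPM in control and 167, 77.2, 156 and 57.5 in fasted mice (log2 change 3.21 ± 0.39, adjusted p 3.31e-08), again without overlap. Ehhadh, the peroxisomal enzyme of fatty acid oxidation, rose from 314 ± 108 to 2265 ± 699 CPM (mean ± SD, n = 4 mice each; log2 change 2.90 ± 0.24, adjusted p 2.23e-12). Cpt1a, the gate through which fatty acids enter mitochondria, showed 510.1, 683, 531 and 619 CPM in control and 1105, 1205, 1247 and 1358 in fasted mice (log2 change 1.07 ± 0.16, adjusted p 1.32e-06), a rise of about the median of its list. Pdk4, the kinase that switches off pyruvate dehydrogenase, was measured at 2.44, 3.21, 6.12 and 6.21 CPM in control and 15.3, 19.2, 127 and 11.0 in fasted mice (log2 change 3.05 ± 0.53, adjusted p 2.47e-05). The groups were apart, but fasted female 1 stood far above the other 3 fasted mice, and without it the log2 change was 1.73.

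Apoa4, the gene of an apolipoprotein carried on triglyceride-rich particles, is another of the 10 largest rises. It gave 131, 189.7, 259 and 318 CPM in control and 2786, 2823, 6364 and 10008 in fasted mice (log2 change 4.48 ± 0.35, adjusted p 3.15e-13), with both fasted females above both fasted males. The position of the gene is chr9:46240696-46243459 on GRCm38. The 10 largest rises also held transcripts of little-known function. Gm48199 was at 1.28, 4.65, 1.38 and 1.54 CPM in control and 15.9, 34.2, 45.5 and 126 in fasted mice (log2 change 4.51 ± 0.93, adjusted p 0.000254). E030018B13Rik was at 9.95, 8.71, 0.478 and 0.363 CPM in control and 36.9, 42.6, 34.04 and 20.6 in fasted mice (log2 change 4.05 ± 0.53, adjusted p 1.5e-07). In both cases the fasted and control values did not overlap, although for E030018B13Rik the control males were well above the control females. The unnamed gene ENSMUSG00000123342 was at 28.5, 36.4, 30.05 and 42.4 CPM in control and 210.3, 228, 664 and 657 in fasted mice (log2 change 3.47 ± 0.36, adjusted p 7.81e-10), and Gm65936 was at 6.96, 10.2, 2.49 and 3.70 CPM in control and 39.4, 39.5, 51.0 and 76.8 in fasted mice (log2 change 3.29 ± 0.31, adjusted p 6.72e-11). Fasted females exceeded fasted males for Gm48199, Gm65936 and ENSMUSG00000123342.

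Ketone body synthesis was represented by 9 genes, of which 4 rose and 2 fell, where 12.8% of all genes rose and 14% fell. Acat1, which joins the first pair of acetyl groups, rose from 344 ± 109 to 558 ± 31.8 CPM (log2 change 0.72 ± 0.18, adjusted p 0.00257). The transporter gene Slc16a7 rose from 107 ± 57.9 to 169 ± 31.7 CPM (log2 change 0.83 ± 0.13, adjusted p 5.77e-06). Oxct1, the enzyme by which tissues other than liver consume ketone bodies, fell from 5.55 ± 1.44 to 2.85 ± 0.417 CPM (log2 change -0.95 ± 0.29, adjusted p 0.0108), but its call was lost without control male 2 or fasted female 2, with log2 changes from -1.12 to -0.74 over the omissions. The number of genes that fell in this list was 1 without any 1 mouse other than control female 1 or fasted male 2. For Slc16a6 the log2 change was -0.77 ± 0.22, and the call was lost without control male 1, control female 2, fasted male 1 or fasted female 1, with log2 changes from -1.05 to -0.56 over the omissions.

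The secreted factors of the liver moved in both directions, 6 of 19 up and 4 down, where 12.8% of all genes rose and 14% fell. Fgf21, a hormone of the fasted liver (chr7:45613886-45615490 on GRCm38), was scarce, with 0.236, 0.338, 0.327 and 1.36 CPM in control and 3.90, 5.03, 15.98 and 9.69 in fasted mice (log2 change 3.95 ± 0.75, adjusted p 8.01e-05). Even the highest control mouse was below the lowest fasted mouse. Igfbp1, a binding protein of IGF-1 that insulin represses, showed 8.01, 33.6, 21.2 and 50.6 CPM in control and 70.1, 139, 433 and 387 in fasted mice (log2 change 2.92 ± 0.85, adjusted p 0.00800), and its call was lost without control male 1 or control female 1, with log2 changes from 2.58 to 3.61 over the omissions. Angptl4, an inhibitor of lipoprotein lipase, showed 79.3, 45.9, 61.5 and 127 CPM in control and 194, 221, 299.8 and 177 in fasted mice (log2 change 1.53 ± 0.44, adjusted p 0.00718), and its call was lost without control male 2 or control female 1, with log2 changes from 1.32 to 1.84 over the omissions. The values of both genes were nonetheless free of overlap. Igfbp2 rose from 437 ± 164 to 966 ± 184 CPM (log2 change 1.15 ± 0.22, adjusted p 9.86e-05) and Rbp4, the carrier of retinol in blood, rose from 2109 ± 217 to 3951 ± 328 CPM (log2 change 0.91 ± 0.080, adjusted p 1e-11). In contrast, Angptl8, a factor of the fed state, fell from 114 ± 50.2 to 9.91 ± 5.27 CPM (log2 change -3.50 ± 0.48, adjusted p 2.79e-07). The number of secreted-factor genes that fell was 2 instead of 4 without control male 1.

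**Figure D2:**
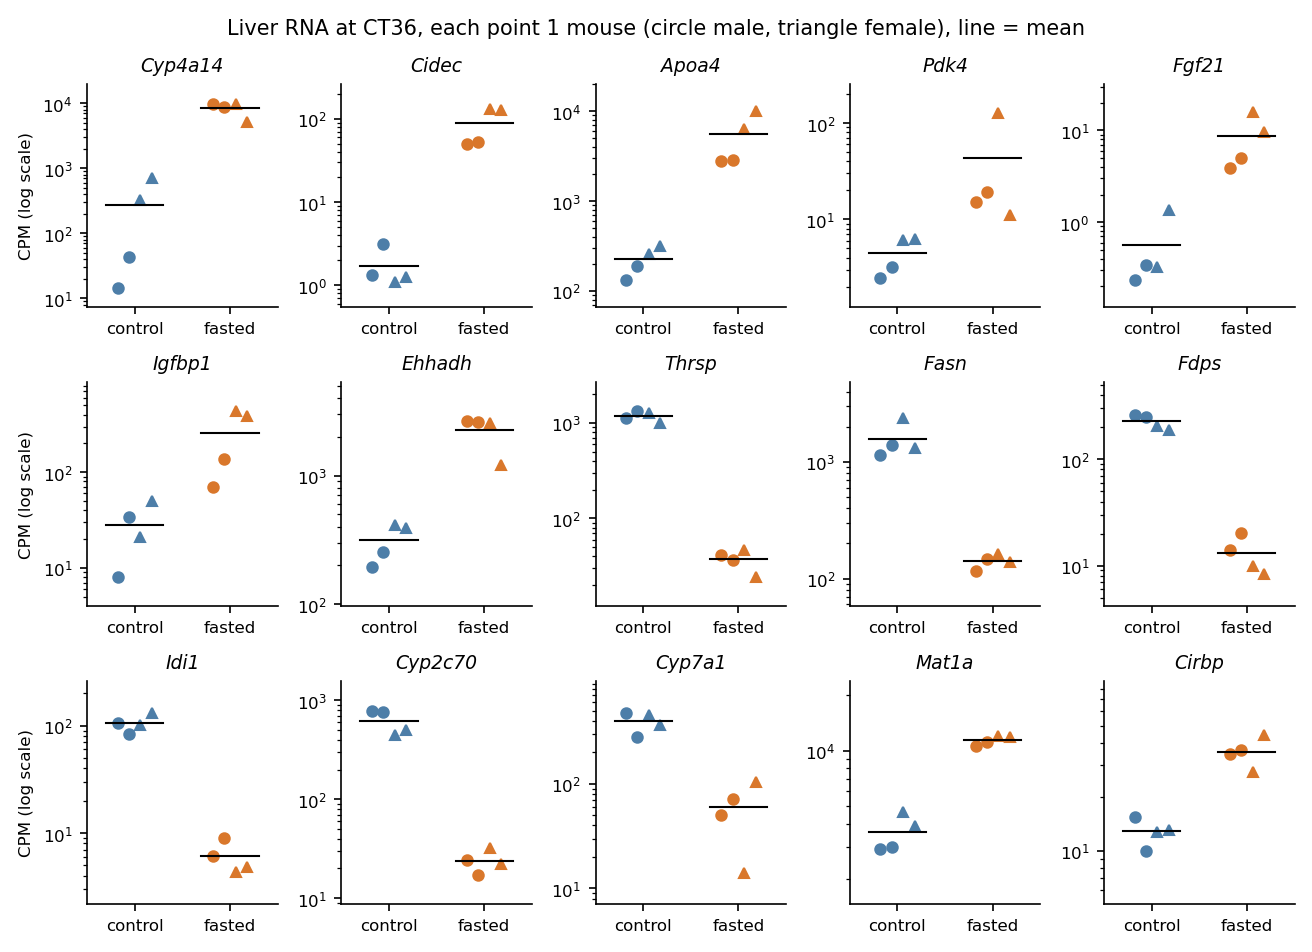
Each panel is 1 gene at CT36, each point 1 mouse (circle male, triangle female, blue control, orange fasted) in CPM on a log axis, and the line is the group mean. In all 15 panels the fasted and control mice do not overlap, from Cyp4a14, which rose by 6.08 on the log2 scale, to Thrsp, which fell by 4.99.

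For glucose output, 10 of 22 genes of gluconeogenesis and its regulators rose and 3 fell, and the median log2 change was 0.48. The shares over all genes were 12.8% up and 14% down. Pck1, the gene of cytosolic phosphoenolpyruvate carboxykinase, gave 2607, 3190.4, 2859 and 3255 CPM in control and 6765, 6713, 4826 and 4600.5 in fasted mice (log2 change 0.92 ± 0.25, adjusted p 0.00440). Ppargc1a, a coactivator of gluconeogenic and mitochondrial genes, gave 12.5, 25.2, 19.96 and 13.8 CPM in control and 37.2, 39.1, 58.6 and 51.3 in fasted mice (log2 change 1.36 ± 0.34, adjusted p 0.00203). Both genes separated the groups completely. G6pc1, which encodes the glucose 6-phosphatase of the last step, was at 288, 404, 305 and 492 CPM in control and 497, 603, 476 and 431 in fasted mice, and the difference did not pass the test (log2 change 0.43 ± 0.29, adjusted p 0.284). Pcx, which carboxylates pyruvate, rose from 624 ± 77.4 to 1178 ± 157 CPM (log2 change 0.91 ± 0.12, adjusted p 2.8e-07), and Crtc2, a coactivator that answers to glucagon, rose from 38.4 ± 1.65 to 60.4 ± 3.55 CPM (log2 change 0.65 ± 0.083, adjusted p 8.62e-08).

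Glycogen genes were divided, with 5 of 15 up and 5 down and a median log2 change of -0.22. The shares over all genes were 12.8% up and 14% down. Ppp1r3b, a subunit that brings a phosphatase to glycogen and favours its storage, fell from 437 ± 58.7 to 157 ± 56.9 CPM (log2 change -1.52 ± 0.29, adjusted p 8.52e-05). Pygl, the liver phosphorylase that breaks glycogen down, also fell, from 464 ± 32.8 to 225 ± 43.1 CPM (log2 change -1.05 ± 0.20, adjusted p 5.87e-05). Gys2, the liver glycogen synthase, rose from 279.99 ± 68.5 to 453 ± 166 CPM (log2 change 0.67 ± 0.16, adjusted p 0.00149), but this call was lost without fasted female 2, with log2 changes from 0.41 to 0.91 over the omissions. Kinase genes of the pathway rose by small amounts, with log2 changes of 0.48 ± 0.12 for Phka2, 0.44 ± 0.061 for Gsk3a and 0.34 ± 0.078 for Gsk3b. The count of glycogen genes that fell was 3 instead of 5 without control male 1, control female 1, fasted male 1 or fasted female 2.

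Genes of fatty acid and triglyceride synthesis fell. Of 30 members 19 fell and 3 rose, with a median log2 change of -1.07, where 14% of all genes fell. Srebf1, whose SREBP-1c product drives the programme, showed 545, 388, 563 and 385 CPM in control and 46.4, 60.4, 25.9 and 62.7 in fasted mice (log2 change -3.27 ± 0.29, adjusted p 1.65e-11). Fasn, the fatty acid synthase, showed 1142, 1391, 2395 and 1305 CPM in control and 117, 148, 161 and 139 in fasted mice (log2 change -3.44 ± 0.39, adjusted p 6.83e-09). Thrsp, a lipogenic factor answering to thyroid hormone and carbohydrate (chr7:97412938-97417730 on GRCm38), showed 1128, 1326, 1285 and 1006 CPM in control and 41.7, 37.1, 46.9 and 24.2 in fasted mice (log2 change -4.99 ± 0.62, adjusted p 3.96e-08), the largest fall by log2 change of the named falls. In each of these genes the groups were far apart and mice of a group were within a few fold of each other. Scd1, which puts the double bond into stearate, was at 4854, 7869, 12836 and 5582 CPM in control and 3735, 2426, 714 and 481 in fasted mice (log2 change -2.50 ± 0.52, adjusted p 0.000271), and fasted male 1 came closest to the controls, whose lowest mouse it did not reach. Acaca, the acetyl-CoA carboxylase of cytosol, fell from 214 ± 74.5 to 58.6 ± 8.14 CPM (log2 change -1.81 ± 0.23, adjusted p 5.03e-08), and Mid1ip1, the protein that helps the carboxylase polymerise, fell from 81.0 ± 15.3 to 12.8 ± 4.36 CPM (log2 change -2.70 ± 0.24, adjusted p 8.82e-12).

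Cholesterol synthesis had the lowest median of the 24 lists, -1.90. Where 14% of all genes fell and 12.8% rose, 24 of its 28 members fell and 1 rose. The exception was Insig2, which retains SREBP in the endoplasmic reticulum, with 52.8, 71.5, 113 and 96.3 CPM in control and 209, 197, 471 and 359 in fasted mice (log2 change 1.85 ± 0.22, adjusted p 1.52e-08), a gene named after its values had been seen. Fdps, which makes farnesyl pyrophosphate (chr3:89093588-89101959 on GRCm38), was at 263, 250.2, 204 and 190.03 CPM in control and 14.04, 20.1, 9.92 and 8.35 in fasted mice (log2 change -4.17 ± 0.28, adjusted p 1.45e-15), and Idi1, the isomerase before it, was at 105, 84.0, 101 and 130.3 CPM in control and 6.14, 9.02, 4.33 and 4.82 in fasted mice (log2 change -4.15 ± 0.33, adjusted p 4.78e-13). For both enzymes the lowest control mouse was several times above the highest fasted mouse. Nsdhl fell from 105 ± 17.7 to 7.91 ± 2.41 CPM (log2 change -3.78 ± 0.23, adjusted p 1.13e-16) and Cyp51 fell from 198 ± 20.4 to 19.5 ± 7.91 CPM (log2 change -3.43 ± 0.22, adjusted p 3.62e-16), both enzymes that trim methyl groups from the sterol ring. The count of genes that fell in this list was 23 without control male 1.

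Because the sterol genes moved together, their promoters were searched. A promoter was taken as 250 bases before to 50 bases after the start in RefSeq (GRCm38.p6), and 20 of the cholesterol genes had one. The CCAAT box, searched as CCAAT on both strands, was found in 18 of these 20 (90.0%), against 41.1% of 27025 genes and 42.4% of the 12522 tested genes with a promoter. Of the other lists searched, the share was 81.8% in cell cycle genes (18 of 22), 75% in the activators and in the repressors of the clock (6 of 8 in each), 64.7% in gluconeogenesis (11 of 17), 62.5% in lipogenesis (15 of 24), 51.6% in one-carbon genes (16 of 31), 51.4% in PPARα targets (18 of 35), 36.4% in clock output genes (4 of 11) and 0% in ketone body genes (0 of 3). The E-box CACGTG was in 5 of the 20 (25%), against 8.09% of all genes and 50% of the clock repressors (4 of 8), and the longer motif TCACNCCAC in 1 (5%), Hmgcs1, against 1.44% of all genes and 8.57% of PPARα targets (3 of 35). The 8 motifs searched were chosen after the expression data had been seen, and a match is a stretch of letters, not a binding site. The last 120 bases before the start are shown for the 5 cholesterol genes of smallest p that hold the box in that stretch, so that its place can be read; capitals mark CCAAT or its reverse ATTGG.
Nsdhl (chrX:72918401-72918520, plus strand): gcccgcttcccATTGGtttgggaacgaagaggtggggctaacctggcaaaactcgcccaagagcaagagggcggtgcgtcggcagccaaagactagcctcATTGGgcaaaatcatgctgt
Cyp51 (chr5:4104698-4104817, minus strand): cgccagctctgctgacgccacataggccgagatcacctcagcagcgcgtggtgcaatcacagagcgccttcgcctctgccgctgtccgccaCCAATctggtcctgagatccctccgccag
Idi1 (chr13:8885486-8885605, plus strand): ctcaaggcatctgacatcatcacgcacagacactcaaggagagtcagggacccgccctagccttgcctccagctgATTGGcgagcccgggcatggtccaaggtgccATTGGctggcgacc
Msmo1 (chr8:64733579-64733698, minus strand): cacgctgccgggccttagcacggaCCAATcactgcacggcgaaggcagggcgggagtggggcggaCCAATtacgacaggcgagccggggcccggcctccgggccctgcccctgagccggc
Dhcr7 (chr7:143830094-143830213, plus strand): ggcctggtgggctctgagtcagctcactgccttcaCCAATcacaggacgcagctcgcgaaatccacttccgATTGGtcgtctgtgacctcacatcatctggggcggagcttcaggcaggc
Cyp51 holds the box once, 29 bases before the RefSeq start, and the other 4 genes hold it 2 times each in these 120 bases, nearest to that start at 14 bases in Idi1, 20 in Nsdhl, 49 in Dhcr7 and 55 in Msmo1. GENCODE M21, which gave the gene positions, starts Idi1 at chr13:8885501 and Cyp51 at chr5:4104746, within the stretches shown. By that annotation the boxes of both genes lie inside the gene, so that these distances hold for the RefSeq start only. Msmo1, a sterol methyl oxidase with 309, 226, 193 and 173 CPM in control and 34.3, 51.4, 15.999 and 18.6 in fasted mice (log2 change -3.02 ± 0.31, adjusted p 4.6e-10), and Dhcr7, the last reductase of the pathway with 154, 132, 135 and 106 CPM in control and 25.8, 37.2, 28.9 and 39.4 in fasted mice (log2 change -2.002 ± 0.21, adjusted p 1.26e-09), were chosen here by their promoters.

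Bile acid genes did not share a direction, with 7 of 24 up, 5 down and a median log2 change of 0.00. Over all genes 12.8% rose and 14% fell. Cyp7a1, the rate-limiting enzyme of bile acid synthesis, was at 480.4, 281, 457 and 366 CPM in control and 50.4, 72.3, 14.1 and 104 in fasted mice (log2 change -2.72 ± 0.63, adjusted p 0.000989). The groups did not overlap. Cyp8b1, which sets the amount of cholic acid, rose from 181 ± 42.9 to 532 ± 248 CPM (log2 change 1.45 ± 0.23, adjusted p 5.3e-06), as did Acox2, from 159 ± 42.7 to 321 ± 28.3 CPM (log2 change 1.05 ± 0.10, adjusted p 1.75e-10), and Hsd17b4, from 381 ± 23.7 to 708 ± 72.8 CPM (log2 change 0.89 ± 0.12, adjusted p 3.43e-07). Of the canalicular pumps, Abcb4, which exports phosphatidylcholine, rose from 251 ± 51.2 to 504 ± 76.0 CPM (log2 change 1.02 ± 0.14, adjusted p 1.82e-07), and Abcb11, which exports bile salts, fell from 461 ± 61.3 to 210.3 ± 14.2 CPM (log2 change -1.13 ± 0.16, adjusted p 1.03e-06). A related fall was that of Cyp2c70, the mouse enzyme that makes muricholic acids (chr19:40153353-40187333 on GRCm38), at 786, 766, 449 and 499 CPM in control and 24.2, 17.3, 32.2 and 22.3 in fasted mice (log2 change -4.67 ± 0.26, adjusted p 7.12e-18). No other gene that the text names had a smaller p, and control males were above control females. Among 25 genes of drug and steroid metabolism 5 rose and 5 fell, where 12.8% of all genes rose and 14% fell. With males alone 5 rose and 1 fell (median log2 change 0.69), and with females alone 0 rose and 9 fell (median -0.82). None of them passed the test of the sex difference. Cyp1a2 fell from 481 ± 106 to 112 ± 62.6 CPM (log2 change -2.28 ± 0.32, adjusted p 6.14e-07), Cyp2f2 fell from 1274 ± 353 to 702 ± 348 CPM (log2 change -0.96 ± 0.16, adjusted p 1.29e-05) and Cyp3a25 rose from 583 ± 102 to 1161 ± 175 CPM (log2 change 0.999 ± 0.18, adjusted p 3.15e-05). The number that rose was 2 without control male 2 and 3 without fasted male 1, fasted male 2 or fasted female 1.

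Of 40 genes of one-carbon metabolism and methyl transfer 6 rose and 6 fell, near the shares of 12.8% and 14% over all genes, with a median log2 change of -0.01. Abundant liver enzymes were among those that rose. Mat1a, the methionine adenosyltransferase of hepatocytes (chr14:41105035-41124412 on GRCm38), was at 2906, 2979.7, 4628 and 3873 CPM in control and 10531, 11093, 11967 and 11842 in fasted mice (log2 change 1.68 ± 0.17, adjusted p 6.23e-10). Ahcy, which removes the S-adenosylhomocysteine left after methylation, was at 1058, 1309.7, 1353 and 1178 CPM in control and 2360.3, 2591, 2346 and 2061 in fasted mice (log2 change 0.93 ± 0.11, adjusted p 5.66e-09). Neither gene had overlapping groups. Ftcd, of histidine and folate metabolism, rose from 446 ± 101 to 647 ± 87.0 CPM (log2 change 0.55 ± 0.10, adjusted p 5.7e-05). Mtr, the methionine synthase, fell from 17.2 ± 1.62 to 12.4 ± 1.16 CPM (log2 change -0.48 ± 0.084, adjusted p 2.72e-05), and Gamt, the last enzyme of creatine synthesis, fell from 171 ± 38.7 to 42.4 ± 13.7 CPM (log2 change -2.04 ± 0.40, adjusted p 0.000109). Nnmt, which methylates nicotinamide, was at 162, 180.3, 99.8 and 53.0 CPM in control and 127, 145, 183 and 314 in fasted mice and did not pass the test (log2 change 0.68 ± 0.40, adjusted p 0.218). Fasted males lay below both control males and fasted females above both control females, and with males alone its log2 change was -0.33. The count of one-carbon genes that fell was 3 instead of 6 without control female 1 or fasted female 2.

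Of 36 genes of the urea cycle and amino acid breakdown 15 rose and 3 fell, with a median log2 change of 0.36. The shares over all genes were 12.8% up and 14% down. Hsd17b10, which acts on isoleucine breakdown and mitochondrial tRNA, rose from 93.2 ± 9.21 to 321 ± 79.1 CPM (log2 change 1.76 ± 0.15, adjusted p 2.14e-12). In the urea cycle, Asl rose from 706 ± 100.02 to 1710.2 ± 179 CPM (log2 change 1.27 ± 0.19, adjusted p 1.28e-06) and Arg1 rose from 1394 ± 277 to 2668 ± 669.6 CPM (log2 change 0.93 ± 0.18, adjusted p 7.89e-05). Enzymes of single amino acids also rose. Tdo2, for tryptophan, went from 1207 ± 185 to 2497 ± 216 CPM (log2 change 1.06 ± 0.17, adjusted p 4.23e-06), Aass, for lysine, from 349.6 ± 57.2 to 803 ± 75.1 CPM (log2 change 1.20 ± 0.21, adjusted p 2.25e-05), and Oat, for ornithine, from 782 ± 250.1 to 1649 ± 85.1 CPM (log2 change 1.08 ± 0.20, adjusted p 7.14e-05). The count of genes that fell was 1 without fasted male 2 or fasted female 2. Of 21 tested targets of the integrated stress response (22 listed) 4 rose and 2 fell, beside 12.8% and 14% of all genes. The number that fell was 1 without control male 1, control female 1 or fasted female 2 and 3 without fasted female 1. Trib3 rose from 2.50 ± 0.614 to 10.7 ± 2.13 CPM (log2 change 2.12 ± 0.36, adjusted p 1.25e-05), Atf5 from 148 ± 10.9 to 419.7 ± 88.6 CPM (log2 change 1.48 ± 0.15, adjusted p 6.52e-10) and Sesn2 from 10.1 ± 4.48 to 23.96 ± 4.22 CPM (log2 change 1.30 ± 0.29, adjusted p 0.000636), whereas the aminoacyl-tRNA synthetase Nars1 had a log2 change of -0.29 ± 0.068. Asns, the asparagine synthetase, was at 7.62, 18.7, 0.0252 and 0.0907 CPM in control and 1.58, 3.70, 0.0666 and 1.53 in fasted mice (log2 change 0.67 ± 1.02, adjusted p 0.679). The groups overlapped, with the control males highest, and without fasted female 2 the log2 change was -1.07.

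Clock genes moved in both directions. Of the activators and nuclear receptors of the clock 8 of 9 passed the filter, 3 rose and 1 fell. Of 12 repressors and their regulators 2 rose and 2 fell, and of 13 output genes 1 rose and 3 fell. Over all genes 12.8% rose and 14% fell. Nr1d1, the gene of the repressor REV-ERBα, was at 37.1, 29.6, 23.4 and 25.6 CPM in control and 47.9, 81.7, 45.9 and 52.6 in fasted mice (log2 change 0.98 ± 0.31, adjusted p 0.0135), and the call was lost without control male 2, control female 1 or fasted male 2, with log2 changes from 0.77 to 1.15 over the omissions. Per2, a repressor of BMAL1 and CLOCK, was at 79.6, 90.2, 89.7 and 93.5 CPM in control and 55.2, 50.2, 62.9 and 42.7 in fasted mice (log2 change -0.74 ± 0.22, adjusted p 0.00890), and the call was lost without fasted female 2, with log2 changes from -0.89 to -0.61 over the omissions. Both showed no overlap. Bmal1 was at 2.43, 2.85, 4.68 and 1.61 CPM in control and 4.33, 3.30, 4.66 and 3.15 in fasted mice (log2 change 0.43 ± 0.33, adjusted p 0.346), Per1 at 66.3, 71.9, 68.9 and 74.5 CPM in control and 101, 113, 95.5 and 112 in fasted mice (log2 change 0.58 ± 0.33, adjusted p 0.203) and the output factor Dbp at 88.6, 77.6, 58.4 and 63.5 CPM in control and 85.8, 98.3, 56.6 and 80.5 in fasted mice (log2 change 0.16 ± 0.36, adjusted p 0.790). None of these 3 passed the test, and Per1 alone among them had groups that did not overlap. The test takes its spread from all 80 libraries, so that its error is not the spread at CT36 alone. With only the CT36 libraries fitted, 4 of the repressors and their regulators rose instead of 2. Bhlhe40, another repressor, fell from 173 ± 35.6 to 92.9 ± 23.6 CPM (log2 change -0.89 ± 0.22, adjusted p 0.00167), Cry2 rose from 47.3 ± 4.56 to 67.6 ± 6.90 CPM (log2 change 0.52 ± 0.13, adjusted p 0.00289), and Nampt, the NAD salvage enzyme under clock control, fell from 181 ± 57.1 to 116 ± 29.2 CPM (log2 change -0.64 ± 0.14, adjusted p 0.000603). Por, the reductase that feeds electrons to cytochromes P450, rose from 824 ± 139 to 1408 ± 218 CPM (log2 change 0.78 ± 0.20, adjusted p 0.00222). Small counts of this kind changed when 1 mouse was left out. The number of activators that rose was 0 without control male 2 and 1 without control female 1, control female 2, fasted male 1, fasted male 2 or fasted female 1. The number of activators that fell was 0 without any 1 mouse other than fasted female 1. Among the repressors the number that rose was 1 without control female 1, fasted male 1, fasted male 2 or fasted female 1, and the number that fell was 1 without fasted female 2.

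The same clock genes took other values at the neighbouring times, as the plot of means over circadian time shows. Nr1d1 went in control mice from 162 ± 58.0 CPM at CT32 to 28.9 ± 6.01 at CT36 and 6.30 ± 3.42 at CT40 (mean ± SD, n = 4 mice at each time). In fasted mice the means were 94.7 ± 35.0, 57.0 ± 16.7 and 38.7 ± 20.7 CPM. The log2 difference between fasted and control was thus -0.78 ± 0.30 at CT32 (adjusted p 0.0672), 0.98 at CT36 and 2.59 at CT40. The change between times was itself only just past the threshold. It was 1.76 ± 0.43, adjusted p 0.0477 for CT36 minus CT32 and -1.61 ± 0.44, adjusted p 0.0470 for CT36 minus CT40. Neither passed an adjusted p under 0.01, and values without single mice are not given for them. Without fasted male 2, the highest fasted mouse for Nr1d1 at CT36, 10 genes instead of 88 differed between CT36 and CT32. Dbp ran from 212 through 72.0 to 8.32 CPM in control and from 107 through 80.3 to 27.6 CPM in fasted mice, so that of these 3 times CT36 was the one at which the means were nearest. For Cyp7a1 the fasted mean was 239 ± 154 CPM at CT32, near the control mean of 218 ± 92.8, and 60.3 ± 37.9 at CT36 against 396 ± 91.3 in control mice. That difference between times did not pass (-2.89 ± 0.85, adjusted p 0.119).

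**Figure D3:**
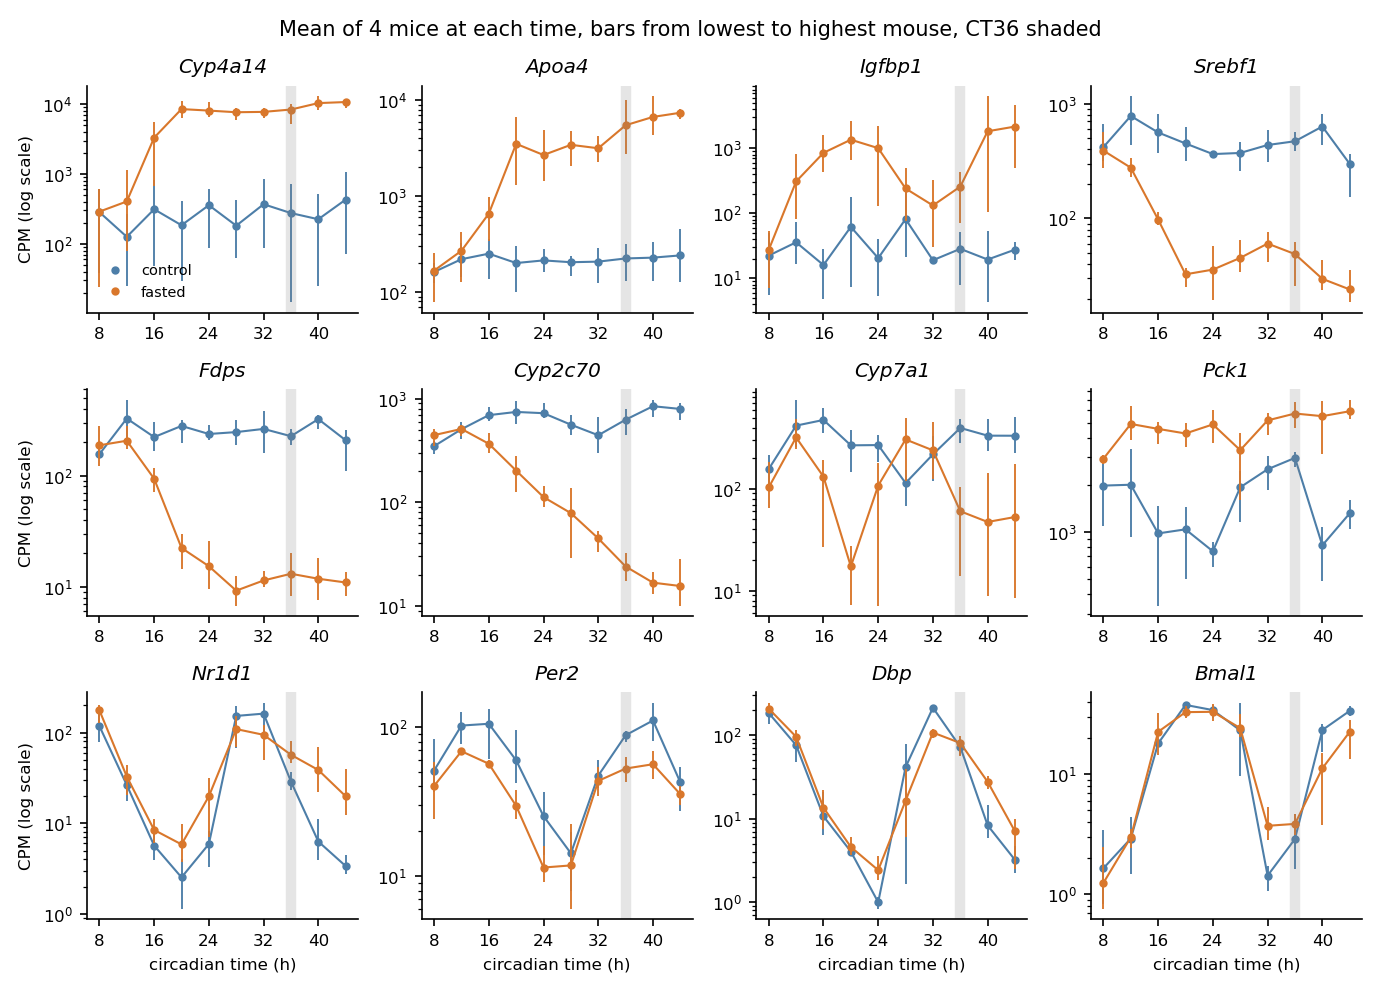
Each panel is 1 gene, with circadian time in hours on the x axis and CPM on a log y axis. Points are means of 4 mice, bars run from the lowest to the highest mouse, control is blue and fasted orange, and CT36 is shaded. For Cyp2c70 the fasted mean falls from 509 CPM at CT12 to 23.98 at CT36, whereas for Dbp the means at CT36 are near each other, at 72.0 CPM in control and 80.3 in fasted mice.

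Body temperature is known to fall in fasting mice, and a small set of RNAs answers to temperature. Whether temperature had a part in the values below was not tested. Cirbp, a cold-inducible RNA-binding protein, was at 15.4, 10.0, 12.7 and 13.1 CPM in control and 34.6, 36.5, 27.6 and 44.3 in fasted mice (log2 change 1.48 ± 0.21, adjusted p 8.5e-07), with no overlap. Rbm3, its relative, rose from 33.6 ± 6.40 to 49.9 ± 3.17 CPM (log2 change 0.58 ± 0.15, adjusted p 0.00250). Hspa1b, an inducible chaperone of the HSP70 family, was at 8.82, 52.0, 7.52 and 11.1 CPM in control and 2.70, 5.95, 11.8 and 1.15 in fasted mice (log2 change -1.65 ± 0.54, adjusted p 0.0196), where control male 2 was far above the other controls and fasted female 1 lay within the control range. Its call was lost without control male 2, control female 2, fasted male 1 or fasted female 2, with log2 changes from -2.90 to -0.76 over the omissions. Of 14 genes in this list 2 rose and 3 fell, where 12.8% of all genes rose and 14% fell. The number that fell ranged from 0, without control male 2 or fasted female 2, to 7, without fasted female 1. Among 21 genes of the endoplasmic reticulum stress response 0 rose and 5 fell, led by Edem1, from 211 ± 9.90 to 129 ± 4.52 CPM (log2 change -0.71 ± 0.10, adjusted p 1.28e-06), and Ern1, the sensor IRE1, from 98.8 ± 9.96 to 43.3 ± 3.85 CPM (log2 change -1.19 ± 0.18, adjusted p 2.11e-06).

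Of 30 autophagy genes 12 rose and 1 fell, with a median log2 change of 0.19, where 12.8% of all genes rose. Map1lc3a rose from 22.9 ± 3.59 to 47.6 ± 7.48 CPM (log2 change 1.06 ± 0.11, adjusted p 1.7e-09) and Map1lc3b from 80.2 ± 8.06 to 141 ± 10.9 CPM (log2 change 0.81 ± 0.14, adjusted p 1.04e-05), both proteins that coat the growing autophagosome. Sqstm1, a cargo receptor, rose from 303 ± 22.1 to 441 ± 50.3 CPM (log2 change 0.54 ± 0.11, adjusted p 0.000145), and Ctsl, a lysosomal protease, rose from 387 ± 77.5 to 775 ± 133 CPM (log2 change 1.01 ± 0.22, adjusted p 0.000432). Ulk2, a kinase that starts the process, fell from 98.0 ± 15.3 to 54.9 ± 14.8 CPM (log2 change -0.86 ± 0.14, adjusted p 7.75e-06). Without fasted female 1 the number that rose was 6, where 12 rose with all 8 mice.

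In insulin and FOXO signalling 18 of 19 genes were tested, 5 rose and 5 fell, where 12.8% of all genes rose and 14% fell. Irs2, a docking protein of the insulin receptor, rose from 16.7 ± 9.67 to 51.0 ± 16.9 CPM (log2 change 1.69 ± 0.27, adjusted p 7.05e-06), Txnip, an inhibitor of thioredoxin, from 72.0 ± 25.9 to 326 ± 280.2 CPM (log2 change 2.07 ± 0.39, adjusted p 6.98e-05), and Insr from 178 ± 4.96 to 233 ± 16.9 CPM (log2 change 0.39 ± 0.086, adjusted p 0.000568). The kinase subunit genes went the other way, Pik3r1 from 126 ± 16.2 to 70.8 ± 9.48 CPM (log2 change -0.83 ± 0.17, adjusted p 0.000286) and Akt1 from 78.0 ± 5.88 to 60.002 ± 4.46 CPM (log2 change -0.38 ± 0.097, adjusted p 0.00282). The number that rose was 3 without control female 2 or fasted male 2. In the growth hormone axis 2 of 16 genes rose and 3 fell, near the shares of 12.8% and 14% over all genes. The number that rose was 0 or 1 without any 1 of the 8 mice. Ghr, the growth hormone receptor, fell from 570.2 ± 40.2 to 323 ± 136 CPM (log2 change -0.91 ± 0.19, adjusted p 0.000302), and Igfals, the partner of IGF-1 in plasma, fell from 146 ± 7.06 to 79.7 ± 36.7 CPM (log2 change -1.002 ± 0.26, adjusted p 0.00327). With males alone 1 gene of this axis rose and 0 fell, so that neither fall was called in males. With females alone 0 rose and 4 fell. No gene of the axis passed the test of the sex difference. Igf1 was at 715, 828, 717 and 813 CPM in control and 857, 826, 447 and 403 in fasted mice and did not pass the test (log2 change -0.36 ± 0.17, adjusted p 0.123). Only the fasted females were below the controls, and with males alone the log2 change was 0.13. Of 17 genes that answer to glucocorticoids 5 rose and 3 fell, with Fkbp5 from 100.5 ± 46.4 to 234 ± 82.0 CPM (log2 change 1.26 ± 0.32, adjusted p 0.00214) and Cdkn1a from 3.53 ± 0.770 to 32.9 ± 35.8 CPM (log2 change 2.78 ± 0.52, adjusted p 6.94e-05) among those that rose and the receptor gene Nr3c1 from 119 ± 10.8 to 83.2 ± 8.49 CPM (log2 change -0.51 ± 0.083, adjusted p 7.31e-06) among those that fell. The number that rose was 3 without control female 1, fasted male 2 or fasted female 1, and the number that fell was 1 without control male 1.

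Cell cycle genes were lower in fasted livers, with 18 of 26 down, 1 up and a median log2 change of -1.80. Among all genes 14% fell and 12.8% rose. With a filter of at least 1 CPM in 4 CT36 libraries, 13 cell cycle genes fell. Ccnd1, the cyclin of entry into the cycle, fell from 116 ± 70.6 to 37.9 ± 43.2 CPM (log2 change -1.90 ± 0.31, adjusted p 9.64e-06). Genes of the helicase that opens DNA for copying fell together, with Mcm3 from 9.30 ± 2.05 to 2.69 ± 0.839 CPM (log2 change -1.79 ± 0.27, adjusted p 1.5e-06), Mcm4 from 9.01 ± 1.54 to 2.55 ± 0.373 CPM (log2 change -1.82 ± 0.26, adjusted p 1.08e-06), Mcm5 from 8.56 ± 2.31 to 1.24 ± 0.115 CPM (log2 change -2.78 ± 0.43, adjusted p 3.92e-06) and Mcm6 from 13.8 ± 2.03 to 2.68 ± 0.426 CPM (log2 change -2.36 ± 0.36, adjusted p 2.37e-06). E2f1, a transcription factor of that step, fell from 4.72 ± 1.62 to 1.14 ± 0.434 CPM (log2 change -2.07 ± 0.33, adjusted p 6.7e-06). The only member that rose was Cdkn1a, which encodes the inhibitor p21. Markers of cell types other than hepatocytes were divided, with falls mainly among those of Kupffer and stellate cells. The counts of markers are likewise to be read beside the 14% of all genes that fell and the 12.8% that rose. Of 8 markers of Kupffer cells, the macrophages of the liver, 7 fell and 0 rose. The sum of these markers ranged from 311 to 558 CPM in control and from 209 to 367 CPM in fasted mice. Clec4f, the lectin that defines Kupffer cells, was at 121, 84.2, 142 and 126 CPM in control and 55.5, 52.9, 66.0 and 79.2 in fasted mice (log2 change -0.90 ± 0.13, adjusted p 1.5e-06), Adgre1 fell from 23.9 ± 4.63 to 11.2 ± 2.86 CPM (log2 change -1.11 ± 0.25, adjusted p 0.000804) and Timd4 from 9.68 ± 2.10 to 4.65 ± 1.25 CPM (log2 change -1.07 ± 0.25, adjusted p 0.000914). In tissue of this kind fewer cells of a type and less RNA per cell cannot be told apart. Of 7 stellate cell markers 4 fell, with sums of 333 to 527 and 282 to 488 CPM, and of 5 bile duct markers 1 fell, Spp1, with sums of 34.6 to 66.0 and 18.7 to 25.6 CPM. The 7 endothelial markers were divided, 2 up and 2 down, with sums of 298 to 396 and 302 to 403 CPM, and none of the 6 lymphocyte and 3 neutrophil markers tested was called. The neutrophil marker Ly6g was at 0 in all 8 libraries. The part of these cell types in the change of the cell cycle genes was not tested.

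Other rises were those of genes known from the intestine, Lgals4 from 11.3 ± 2.06 to 41.1 ± 8.69 CPM (log2 change 1.87 ± 0.26, adjusted p 5.52e-07) and Fabp2 from 44.3 ± 10.1 to 116 ± 5.01 CPM (log2 change 1.41 ± 0.21, adjusted p 1.3e-06), while Vil1, a marker of the same epithelium, was at 0.232 and 0.133 CPM on average (log2 change -0.52 ± 0.70, adjusted p 0.629). Other genes among the 10 largest falls were Prok1, a secreted peptide, at 13.1, 12.3, 3.75 and 10.6 CPM in control and 1.00, 1.44, 0.0444 and 0.438 in fasted mice (log2 change -4.17 ± 0.58, adjusted p 4.36e-07), and a pair of predicted genes, Gm33459 at 22.02, 63.6, 9.13 and 26.2 CPM in control and 2.44, 2.12, 0.555 and 0.438 in fasted mice (log2 change -4.68 ± 0.73, adjusted p 3.48e-06) and Gm3571 at 20.3, 21.0, 15.96 and 16.1 CPM in control and 0.660, 1.42, 0.643 and 0.739 in fasted mice (log2 change -4.42 ± 0.31, adjusted p 1.27e-14). All 3 had groups that did not overlap.

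The acute-phase proteins, which the liver secretes in inflammation, gave a result that rested on 1 mouse. With all 8 libraries 10 of 23 members fell and 2 rose, where 14% of all genes fell and 12.8% rose. Without control male 1 the counts were 2 down and 4 up. Saa2, a serum amyloid A, was at 5257, 31.4, 12.0 and 14.02 CPM in control and 6.72, 3.36, 4.55 and 10.5 in fasted mice (log2 change -4.91 ± 1.03, adjusted p 0.000316). Its near-identical copy Saa1 was at 5423, 81.1, 20.6 and 24.3 CPM in control and 20.6, 11.9, 11.5 and 27.0 in fasted mice (log2 change -3.81 ± 0.89, adjusted p 0.00103), and Orm2 was at 408, 5.41, 21.8 and 13.6 CPM in control and 3.82, 2.41, 7.06 and 9.55 in fasted mice (log2 change -3.58 ± 0.77, adjusted p 0.000446). Control male 1 was far above every other mouse for these genes, and none of the 3 was called without it, with log2 changes of -1.71, -1.26 and -0.94 in that order. Lcn2, the iron-scavenging lipocalin, was at 649.7, 5.27, 7.25 and 9.16 CPM in control and 3.59, 3.38, 30.9 and 54.2 in fasted mice (log2 change -2.09 ± 0.89, adjusted p 0.0764), and its log2 change without control male 1 was 0.90. Saa1, Orm2 and Lcn2 were named after their values had been seen. Of the members named by rule, Il1rn, the antagonist of interleukin 1, rose from 2.05 ± 0.529 to 10.9 ± 8.11 CPM (log2 change 2.05 ± 0.37, adjusted p 3.29e-05) and Lbp, which binds bacterial lipopolysaccharide, from 71.2 ± 30.9 to 158 ± 7.92 CPM (log2 change 1.15 ± 0.22, adjusted p 6.7e-05).

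**Figure D4:**
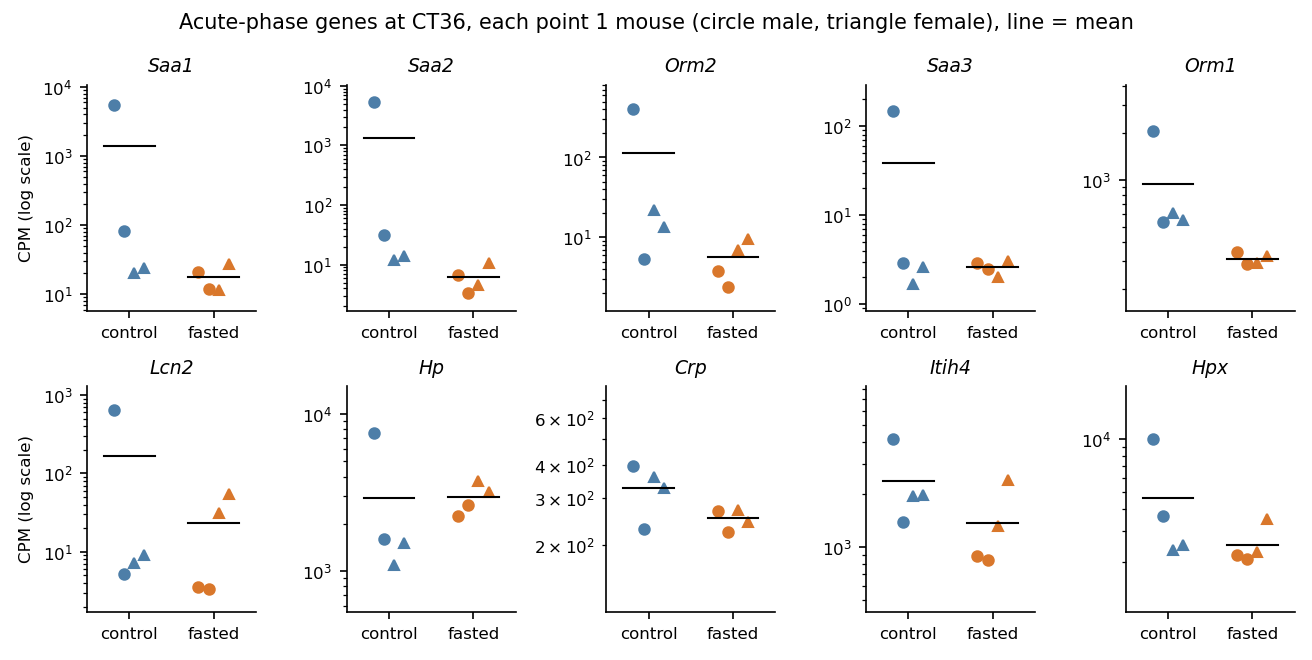
Each panel is 1 acute-phase gene at CT36, each point 1 mouse (circle male, triangle female) in CPM on a log axis, and the line is the group mean. The genes shown were picked after their values had been seen. Control male 1 is the highest point in all 10 panels, at 5257 CPM for Saa2 and 649.7 CPM for Lcn2, and the control means are drawn up by it.

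Males and females were then compared in their response. The difference between the sexes in the log2 change passed the test for 2 of 21187 genes (0.00944%), and 2144 genes had an unadjusted p under 0.05. Bco1, the enzyme that cuts β-carotene to retinal (chr8:117095854-117133720 on GRCm38), was at 7.69, 7.69, 6.37 and 7.12 CPM in control and 3.01, 3.15, 8.19 and 18.9 in fasted mice. In males it was lower in fasted mice and in females higher, with a difference (female minus male) of 2.32 ± 0.39, adjusted p 0.00352. Cyp2c38, a cytochrome P450 of the Cyp2c cluster, whose members are similar in sequence (chr19:39389556-39463075 on GRCm38), was at 16.4, 11.9, 143 and 112 CPM in control and 92.8, 80.3, 147 and 97.2 in fasted mice, with a difference of -2.67 ± 0.45, adjusted p 0.00352. Fasted males came near the level of females, for which the log2 change was -0.064 against 2.61 in males. The call of Bco1 was lost without control female 1, fasted male 1, fasted male 2 or fasted female 2, with differences from 1.60 to 2.34 in these cases, and that of Cyp2c38 without control female 1, fasted male 1 or fasted female 2, with differences from -2.57 to -2.41. The number of genes called by edgeR was 0 without control female 1 or fasted male 1, 1 without fasted male 2, 15 without control male 2 and 145 without fasted female 1. The next genes by p missed the threshold, with differences of -0.91 ± 0.18, adjusted p 0.0595 for Dsg2, -1.41 ± 0.29, adjusted p 0.0595 for Abcc3 and 3.29 ± 0.70, adjusted p 0.0631 for Mid1. A gene with a sex difference in level, Slco1a1, was at 452, 467, 84.9 and 245 CPM in control and 237, 197, 7.99 and 6.79 in fasted mice and fell (log2 change -2.78 ± 0.45, adjusted p 6.38e-06), whereas none of the other 17 sex-dependent genes tested was called. With males alone 2549 genes were called and with females alone 3483, counts that do not test the difference.

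**Figure D5:**
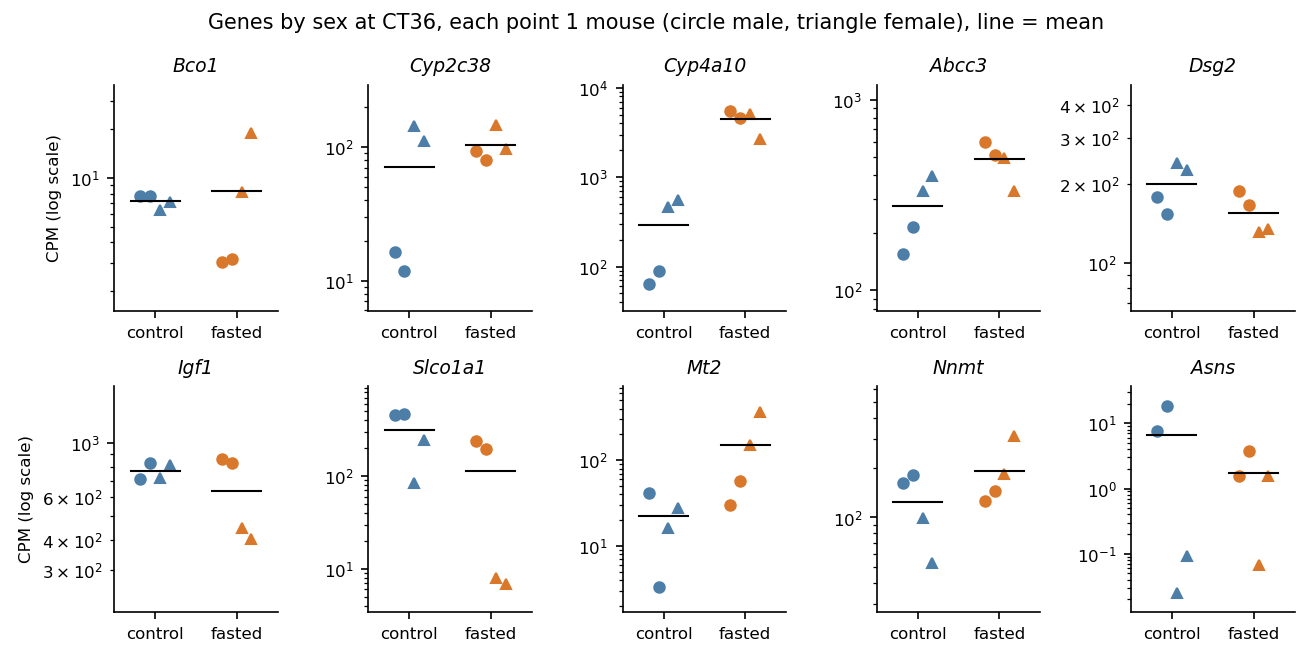
Each panel is 1 gene at CT36, each point 1 mouse (circle male, triangle female) in CPM on a log axis, and the line is the group mean; the genes other than the named ones were picked after their values had been seen. For Bco1 the fasted males lie below and the fasted females above the controls, and for Cyp2c38 the control males, at 16.4 and 11.9 CPM, lie below all other mice.

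The position of CT36 within the fast was read from the differences between its fasting effect and that at other times, all of which share the 8 libraries of CT36 and so are not independent of each other. Against CT12, 2 h into the fast, 1318 genes (6.22%) differed in their response, 566 with a higher and 752 with a lower log2 change at CT36. Of the PPARα targets 19 were higher and 0 lower, of the cholesterol genes 1 and 22, of the cell cycle genes 0 and 12, and of the Kupffer cell markers 0 and 6. Among the 5 genes of smallest p in each direction were Apoa4, with a difference of 4.25 ± 0.44, adjusted p 5.63e-09, Ehhadh, with 2.79 ± 0.32, adjusted p 9.86e-08, Cidec, with 4.23 ± 0.59, adjusted p 5.36e-06, and Hsd17b10, with 1.53 ± 0.20, adjusted p 2.36e-06. The lower ones were led by Cyp2c70, with -4.68 ± 0.33, adjusted p 6.91e-14, whose fasted mean was 509 ± 53.7 CPM at CT12 and 23.98 ± 6.18 CPM at CT36. Sterol genes among them were Nsdhl, with -3.57 ± 0.30, adjusted p 1.41e-11, Cyp51, with -3.28 ± 0.29, adjusted p 4.93e-11, and Fdps, with -3.57 ± 0.35, adjusted p 1.64e-09. The number that differed was 766 without fasted male 2 and 830 without control female 1. At CT12 itself 340 genes were called, and 5 PPARα targets rose and 4 cholesterol genes fell.

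Neighbouring times differed less. Against CT32, 88 genes (0.415%) differed, 58 with a higher and 30 with a lower log2 change at CT36. Klhl24 had a difference of 1.08 ± 0.17, adjusted p 0.00119, Calcoco1 of 0.97 ± 0.17, adjusted p 0.00866 and Rcan1 of -1.38 ± 0.25, adjusted p 0.00866. Rcan1, an inhibitor of calcineurin, went in control mice from 17.8 ± 3.87 CPM at CT32 to 38.7 ± 2.73 at CT36 and 46.3 ± 6.67 at CT40, and stayed in fasted mice at 21.5 ± 5.38, 17.9 ± 3.36 and 17.7 ± 1.32. Klhl24 crossed over. It was at 108 ± 20.1 CPM in control and 76.4 ± 20.5 in fasted mice at CT32, and at 69.1 ± 9.93 and 101 ± 15.3 at CT36. Tsc22d3, a gene that glucocorticoids induce, had the opposite crossing, with 40.4 ± 4.06 and 75.1 ± 16.4 CPM at CT32 and 113 ± 21.0 and 67.2 ± 14.5 at CT36 (-1.64 ± 0.35, adjusted p 0.0270), but this difference was not called without control male 1, fasted male 1 or fasted male 2, where it ranged from -1.72 to -1.47. The number of genes that differed between CT36 and CT32 was 10 without fasted male 2, 14 without control male 1, 21 without control male 2, 28 without fasted male 1, 32 without control female 2 and 37 without control female 1. At CT32 as such 3751 genes were called, 27 PPARα targets rose and 27 cholesterol genes fell.

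Against CT40, 333 genes (1.57%) differed, 158 with a higher and 175 with a lower log2 change at CT36. Nr1d2, the second REV-ERB gene, had a difference of -1.54 ± 0.22, adjusted p 0.00013. Its control mean went from 94.8 ± 2.96 CPM at CT36 to 32.5 ± 10.6 at CT40, and its fasted mean from 103 ± 15.1 to 101 ± 15.9. Actb, the cytoskeletal actin, had one of 1.26 ± 0.19, adjusted p 0.000161, with control means of 389 ± 49.2 and 779 ± 79.4 CPM at these times against fasted means of 413 ± 72.3 and 355 ± 117. Ppard, a nuclear receptor related to PPARα, had 1.57 ± 0.25, adjusted p 0.000369, and its control mean went from 12.8 ± 1.41 CPM at CT36 to 41.0 ± 13.6 at CT40. In these 3 genes the control means moved more than the fasted means between CT36 and CT40. The number of genes that differed between these times was 62 without control female 2, 72 without control male 2, 107 without fasted male 2, 166 without fasted female 2 and 205 without fasted male 1. At CT40 there were 8459 called genes, with 35 PPARα targets that rose and 24 cholesterol genes that fell.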

How the data were processed

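The authors deposited raw counts per gene for all 80 libraries, whole numbers without normalization, and only these were used; the normalized values and the exon counts that the authors also deposited were not used here. The submitters' processing notes name Trimmomatic, HISAT2, DESeq2 and the build GRCm39, and the counting program is not given in the sources used here. The article is a review without methods, and gave no test to follow. Libraries were grouped by their titles, which match the column names, and each was 1 mouse.

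In R 4.3.3, genes with low counts were removed with filterByExpr of edgeR 4.0.16, which left 21187 of 78275, libraries were scaled by TMM, and all 80 libraries were fitted by edgeR's quasi-likelihood method with 40 group means (treatment by time by sex) and trended dispersions. The fasting effect at CT36 was the average over the sexes of the difference between fasted and control means. The sexes, and CT36 with CT32, CT40 and CT12, were compared by contrasts in the same fit. The Benjamini–Hochberg adjustment ran over all genes, and an adjusted p under 0.05 was a call. Values are TMM-scaled CPM, and errors of log2 changes are standard errors. The fits were tested on simulated data. Alternatives used limma 3.58.1 and DESeq2 1.42.0. No pair of libraries agreed within sampling noise.

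The gene lists and the rule for named genes were chosen with earlier results of these data known. The rule takes up to 6 members of each list (first a set of displayed genes, then called members of smallest p), the 10 largest rises and 10 largest falls among called genes whose groups do not overlap and whose mean log2 CPM is at least 1, 5 genes by p for the difference between sexes, and 5 in each direction for each difference between times. A few genes that it selects are left out of the text. Gene names come from the deposited table, and 1 marker symbol, Tf, was not matched. Positions are those of GENCODE M21 on GRCm38, older than the annotation of the counts, and promoters are those of RefSeq on GRCm38.p6. The total counts of the 8 libraries, 34574971 to 59927771, set the precision, and values near 0 CPM rest on few reads.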

Additional observations from a re-analysis of the deposited data

Results flagged for a closer look

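A single mouse stood apart from the other 3 of its group in 4 of 116 checks of the named genes and of total counts (3.45%, where chance gives about 1 in 20), by the gap to its nearest neighbour as a share of the range in log2 CPM. Saa2 was at 5257 CPM in control male 1 and Lcn2 at 649.7 CPM in the same mouse, both above the rest of the group. Gm48199 was at 4.65 CPM in control male 2, above the other control mice, and Prok1 at 3.75 CPM in control female 1, below them.

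The response differed between the sexes for 2 genes by the test of that difference, Bco1 with 2.32 and Cyp2c38 with -2.67 (log2 change in females minus that in males). It differed between CT36 and CT32 for 88 genes. The log2 change at CT36 minus that at CT32 was 1.08 for Klhl24, 0.97 for Calcoco1, 1.36 for Gm34934, 0.86 for Dyrk1b and 1.05 for Tmem131l among those with a higher change at CT36. It was -1.38 for Rcan1, -0.65 for Akirin1, -0.95 for Aen, -1.64 for Tsc22d3 and -1.20 for Ints2 among those with a lower one.

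Between CT36 and CT40 the response differed for 333 genes. The log2 change at CT36 minus that at CT40 was 0.82 for Prkaca, 1.26 for Actb, 1.57 for Ppard, 0.67 for Lamtor1 and 0.73 for Tmem250, and -1.54 for Nr1d2, -2.26 for Gm38455, -0.76 for Clmn, -0.68 for 4833420G17Rik and -0.65 for Bsdc1. Between CT36 and CT12 it differed for 1318 genes, with 4.25 for Apoa4, 2.79 for Ehhadh, 1.53 for Hsd17b10, 0.72 for Psmc4 and 4.23 for Cidec, and -4.68 for Cyp2c70, -3.57 for Nsdhl, -3.28 for Cyp51 and -3.57 for Fdps.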

How the results depend on the processing

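The number of genes called at CT36 was 5672, and it was 5664 with DESeq2's size factors, 5750 with upper-quartile scaling, 5992 with the DESeq2 Wald test and 5604 with limma-voom, 1046 for a change of at least 1.5 times, 3496 at an adjusted p under 0.01, 2549 in males alone and 3483 in females alone, and 4212 to 5008 without 1 mouse. The number called for the sex difference was 808 with no low-count filter, 18 with at least 1 CPM in 4 CT36 libraries, 156 with the DESeq2 Wald test, 4 with limma-voom and 15 with only the times compared, and 0 to 145 without 1 mouse. For CT36 minus CT32 it was 674 with no low-count filter, 237 with the DESeq2 Wald test, 141 with only the times compared, 0 with sex not in the model or a change of at least 1.5 times (2167 genes had an unadjusted p under 0.05 in edgeR), 5 at an adjusted p under 0.01, and 10 to 93 without 1 mouse. For CT36 minus CT40 it was 1071 with no low-count filter, 731 with the DESeq2 Wald test, 7 with only the times compared, 76 with sex not in the model, 2 for a change of at least 1.5 times, 69 at an adjusted p under 0.01, and 62 to 478 without 1 mouse. For CT36 minus CT12 it was 306 with sex not in the model, 120 for a change of at least 1.5 times, 458 at an adjusted p under 0.01, and 766 to 1151 without 1 mouse. The share of higher calls at CT36 moved from 47.8% to 55.2% at most, with upper-quartile scaling. The causes were not tested.

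The replicate numbers did not pair the mice, since over 20 pairs of equally numbered mice the median correlation of their deviations was 0.0019 (range -0.056 to 0.249) and 1 pair was over 0.1. With the replicate number as a block the counts were 5059 at CT36, 3 for the sex difference, and 25, 177 and 943 for the differences from CT32, CT40 and CT12.

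Of 3832 values of named genes and list members under the alternatives, 3454 kept their direction and their side of the threshold and 12 changed sign. With males alone these were Nnmt (-0.33), Igf1 (0.13), Asns (-2.31) and Prlr (0.16), and with females alone Nfil3 (-0.023), Hspa1a (0.45), Cux2 (-0.73) and Lcn2 (2.37). With sex not in the model they were Asns (-1.94) and Cux2 (-0.18), without fasted female 2 Asns (-1.07, where omissions of 1 mouse reached 1.24), and without control male 1 Lcn2 (0.90, where they reached -2.59), all as log2 changes. Nothing here limits a statement by depth except values near 0 CPM, and the 2 mice of each sex in a group limit the tests of sex.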
